A study of Mus musculus with 106 samples.

Results

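The 10 genes of the NF-κB system examined here were taken by name from the 21938 protein-coding genes of the GRCm38 annotation. They are the 5 DNA-binding subunits (Nfkb1, Nfkb2, Rel, Rela and Relb), the 4 IκB proteins Nfkbia, Nfkbib, Nfkbie and Nfkbiz, and Tnfaip3, a ubiquitin-editing enzyme that shuts off signalling to the pathway. Each gene was read at its promoter, defined as 1 kb either side of any annotated start site, and over its locus, defined as the gene body with 20 kb on each side. All 10 genes passed the filter on weak peaks for both histone marks.

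NF-κB dimers rest in the cytoplasm in complexes with IκB proteins, and in macrophages a Toll-like receptor that senses lipopolysaccharide (LPS) leads to the destruction of those inhibitors and the entry of the dimers into the nucleus. Rela and Rel pair with the processed Nfkb1 product in the fast, canonical arm, while Relb pairs with the processed Nfkb2 product in the slower, noncanonical arm. Nfkbia, Nfkbie and Tnfaip3 are themselves NF-κB targets, so the pathway builds its own brakes, and Nfkbiz is a nuclear IκB protein that acts as a cofactor at a subset of targets. Acetylation of histone H3 at lysine 27 (H3K27ac) marks active promoters and enhancers, and trimethylation at lysine 4 (H3K4me3) marks promoters.

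The series comprised 70 ChIP-seq peak lists, 35 for each mark, from C57BL/6J mice assigned to groups at 12 to 14 weeks of age. Mice were either nondiabetic controls or had been made diabetic with streptozotocin at 42 to 45 mg/kg a day for 5 days. Bone marrow of diabetic mice was taken 6 weeks after the last injection from animals with non-fasted glucose above 13.9 mmol/L. Each kind of mouse gave 3 cell states: marrow depleted of lineage-committed cells and labelled HSC, which enriches stem cells without sorting them to purity, unstimulated bone marrow–derived macrophages (BMDM) grown for 7 days in L929-conditioned medium with 5 mmol/L glucose, and BMDM exposed for 16 hours to LPS (100 ng/mL) together with interferon-γ (IFN-γ, 10 ng/mL). Each mark had 6 libraries per cell state and disease group, apart from diabetic unstimulated BMDM, which had 5. In such bulk samples, fewer cells of a type and less signal per cell cannot be told apart. The study's methods count n as individual animals, while the labels do not tie each library to an animal, and p-values measure the spread between these libraries.

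Because the lists hold called peaks and not counts, a gene was measured by the rank of its strongest promoter peak when the peaks of a library were ordered by the −log10 p-value of the peak caller, with rank 1 the strongest. Lists held 51162 to 176559 peaks for H3K27ac (median 124083) and 13730 to 277213 for H3K4me3 (median 96580), so ranks past the shortest list of a mark, and absent peaks, were set to that list's length plus 1. A rank states the place of a peak among the other peaks of the same library and not an absolute amount of the mark. Progenitor markers were found in the 10000 strongest H3K27ac peaks of HSC (1 to 6 of 8 per library) and seldom in those of unstimulated BMDM (0 to 1 of 8), and macrophage markers showed the reverse (0 to 1 of 8 in HSC, 1 to 4 of 8 in unstimulated BMDM). Among those macrophage markers the promoters of Adgre1 and Itgam were in the top 10000 of no H3K27ac library, and no neutrophil (0 of 4) or lymphoid (0 of 4) marker was in the top 10000 of any. Past that place in the list, the neutrophil-lineage markers Mpo and Elane were nearer the top in HSC than in unstimulated BMDM (adjusted p under 0.05 in limma). The neutrophil markers Ngp and Ltf were not called. For H3K4me3 the progenitor markers did not separate the cells, with 3 to 7 of 8 in HSC and 5 to 6 of 8 in unstimulated BMDM. Erythroid markers of H3K27ac reached 1 to 3 of 4 in HSC and 0 to 1 of 4 in unstimulated BMDM. The part of erythroid or neutrophil-lineage cells in the HSC values was not tested. Among the H3K27ac libraries, 3 of control BMDM stood against their labels at regions that separated stimulated from unstimulated BMDM of diabetic mice. The library labelled LPS+IFN-γ control 5 held 5 of 26 stimulated and 25 of 27 unstimulated regions, the library labelled unstimulated control 5 held 18 of 26 and 5 of 27, and the library labelled unstimulated control 6 held 17 of 26 and 1 of 27. Labels were kept as given, and the tests and orders of H3K27ac are also given without these 3. Since they were picked for their likeness to the opposite state, leaving them out favours a larger difference between states. The library labelled unstimulated control 1 held 7 of 26 stimulated and 10 of 27 unstimulated regions and was kept throughout. Diabetic libraries defined these regions, so the check could not be made on diabetic libraries.

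The promoter sequences are shown first because they carry κB motifs in 6 of the 7 genes matched by symbol in the RefSeq promoter table (GRCm38), namely Nfkb2, Rel, Rela, Nfkbia, Nfkbie and Tnfaip3 but not Nfkbib. Nfkb1, Relb and Nfkbiz were not matched. The letters searched on both strands were GGGNNTTTC and GGGNNTTCC for κB, which may overlap each other, and GAAANNGAA for the interferon response motif. Capitals mark every match in the sequences that follow, which run 5′ to 3′ on the gene's strand within the 250 bases before the RefSeq start site and stop where an annotated exon begins.
Nfkbia, chr12:55492648-55492897, minus strand: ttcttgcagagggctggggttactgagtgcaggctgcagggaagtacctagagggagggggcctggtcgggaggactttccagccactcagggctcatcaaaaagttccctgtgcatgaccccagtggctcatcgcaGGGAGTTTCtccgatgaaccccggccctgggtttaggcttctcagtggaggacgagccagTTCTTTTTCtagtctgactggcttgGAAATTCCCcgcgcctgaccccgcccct
Rel, chr11:23770971-23771219, minus strand: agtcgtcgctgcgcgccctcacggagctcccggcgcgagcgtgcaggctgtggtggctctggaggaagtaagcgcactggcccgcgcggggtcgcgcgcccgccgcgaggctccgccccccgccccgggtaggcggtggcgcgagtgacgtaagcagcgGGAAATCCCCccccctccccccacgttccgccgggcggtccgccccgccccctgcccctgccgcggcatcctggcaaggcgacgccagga
Rela, chr19:5637291-5637482, plus strand: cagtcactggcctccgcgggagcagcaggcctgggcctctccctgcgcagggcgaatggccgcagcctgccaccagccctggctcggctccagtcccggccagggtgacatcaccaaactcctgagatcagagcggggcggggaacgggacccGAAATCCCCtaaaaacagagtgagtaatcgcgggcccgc
Nfkbie, chr17:45555450-45555699, plus strand: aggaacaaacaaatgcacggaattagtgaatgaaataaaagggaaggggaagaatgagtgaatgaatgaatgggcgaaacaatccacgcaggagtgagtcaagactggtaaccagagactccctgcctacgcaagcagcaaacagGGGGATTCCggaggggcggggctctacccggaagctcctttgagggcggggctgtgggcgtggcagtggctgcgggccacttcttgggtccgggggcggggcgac
Nfkb2, second of its RefSeq promoters, chr19:46305445-46305694, plus strand: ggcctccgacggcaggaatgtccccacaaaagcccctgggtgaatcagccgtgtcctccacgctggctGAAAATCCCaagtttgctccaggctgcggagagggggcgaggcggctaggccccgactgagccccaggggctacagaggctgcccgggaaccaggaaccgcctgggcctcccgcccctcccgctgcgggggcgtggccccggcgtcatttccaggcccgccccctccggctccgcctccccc
Nfkbia, the main cytoplasmic inhibitor, carried 2 κB matches, at -113 and -28 from the start site, with an interferon match at -53 between them. Rel held 2 overlapping matches at -91 and -90, Rela 1 at -97 and Nfkbie 1 at -105. Counted over windows, 8 of the 10 promoters of the matched genes held a κB match, whereas 8.14% of all 32851 promoters of the same length did. The interferon motif was in 1 of the 10, against 7.13% of all promoters. A match describes the letters of a window and is not a measured binding site.

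Promoters of all 10 genes carried H3K27ac in every library. A peak was present in 350 of 350 pairs of gene and library, and 349 pairs (99.7%) lay within the 10000 strongest peaks. For comparison, a median of 40.7% of all protein-coding genes (32.3% to 44.8% over libraries) had a promoter peak in the top 10000. The exception was Nfkbie in the library labelled diabetic HSC 6, at rank 33681. H3K4me3 was present in 345 of 350 pairs, and 306 (87.4%) were in the top 10000, against a median of 41.0% of all genes. All 5 absent peaks, at Rel, Rela, Relb, Nfkbia and Nfkbie, belonged to the H3K4me3 library labelled diabetic HSC 6, whose list was the shortest. These shares describe genes picked for their known roles in blood cells, and no test was applied to them.

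**Figure D1:**
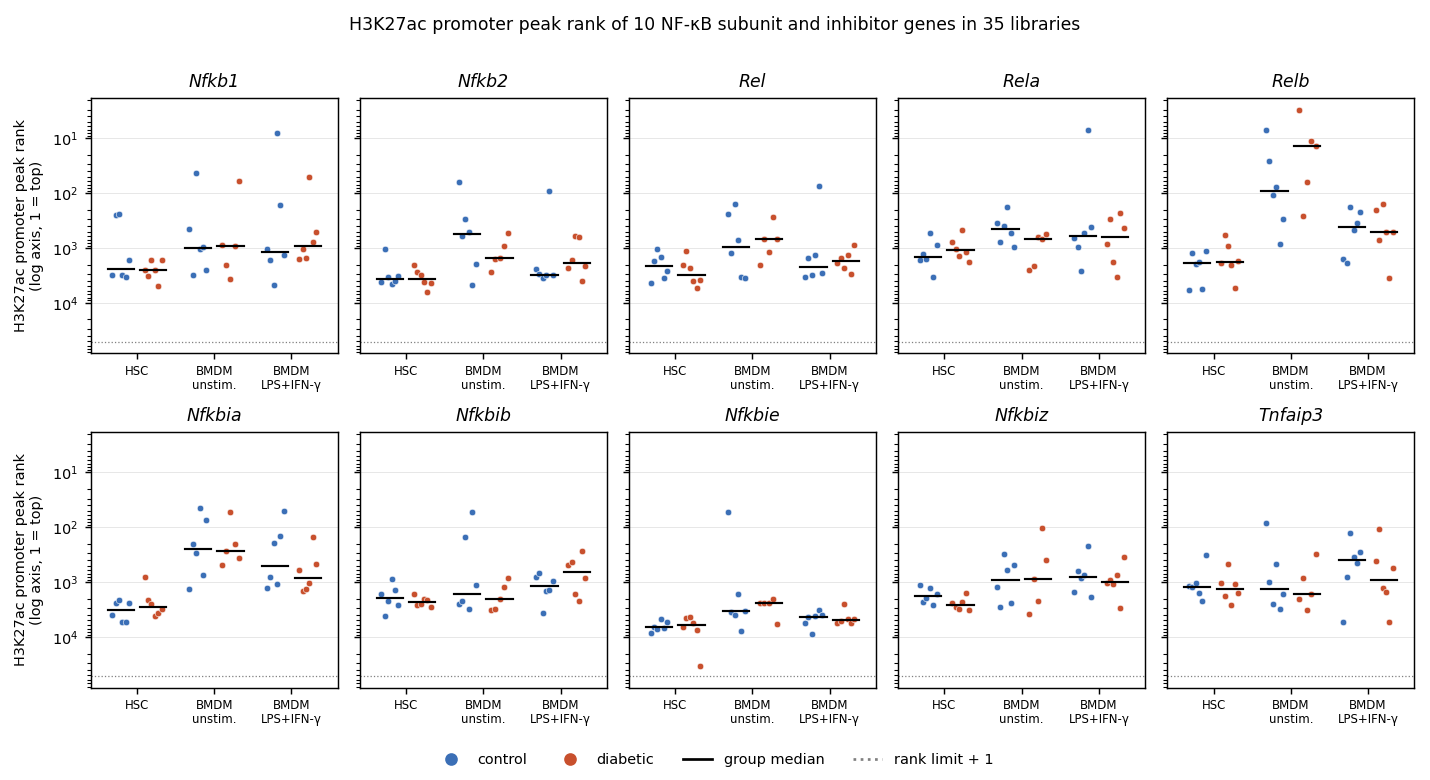
H3K27ac promoter peak rank (log axis, rank 1 at the top) of each gene in the 35 libraries by cell state, with control and diabetic libraries as separate colours and bars at group medians. Relb reached ranks 3 to 859 in unstimulated BMDM and 577 to 5733 in HSC, and Nfkbie was the gene farthest from the top in each cell state.

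Relb (chr7:19606217-19629438, minus strand), the noncanonical subunit, stood nearest the top of all members in unstimulated BMDM. Its H3K27ac promoter rank ran from 1136 to 5733 (median 1875.5) in control HSC and from 577 to 5312 (median 1798.5) in diabetic HSC. In unstimulated BMDM it ran from 7 to 859 (median 91) in control libraries and was 3, 11, 14, 63 and 265 in the diabetic ones. The cell states overlapped only through the library labelled unstimulated control 5, at rank 859, which is one of those against its label, and diabetic HSC 2, at rank 577. After LPS+IFN-γ the rank was 180 to 1889 (median 411) in control and 161 to 3572 (median 508) in diabetic BMDM, so that 8 of 11 unstimulated libraries lay nearer the top than any stimulated one. The geometric mean rank of Relb in unstimulated BMDM was 47.7 (SD 2.54 on the log2 scale, n = 11), nearer the top than 99.98% of the genes tested.

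The fold enrichment of the same Relb peaks over the input, a deposited value that is not a rank, was less separated. It was 5.77 to 10.7 (median 8.92) in control HSC, 7.69 to 30.4 (median 14.0) in diabetic HSC, 9.90 to 16.5 (median 12.1) in control unstimulated BMDM and 8.93 to 21.6 (median 13.4) in diabetic unstimulated BMDM. Control HSC and control unstimulated BMDM overlapped only between 9.90 and 10.7. The diabetic groups overlapped widely, and there the median was higher in HSC, against the direction of the ranks.

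Nfkbia (chr12:55489410-55492647, minus strand) was the next member in unstimulated BMDM, with a geometric mean rank of 230 (SD 1.55 on the log2 scale, n = 11). Its rank was 2082 to 5287 (median 3168.5) in control HSC and 801 to 4203 (median 2818.5) in diabetic HSC. It was 45 to 1356 (median 249) in control unstimulated BMDM and 53, 199, 267, 358 and 482 in the diabetic libraries. One unstimulated library, control 1 at rank 1356, fell among the HSC values. LPS+IFN-γ libraries ranged from 50 to 1302 (median 499) in control and 150 to 1428 (median 825.5) in diabetic BMDM, and overlapped the unstimulated ones throughout.

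The other members changed place less between cell states. Nfkb2 (chr19:46304320-46312385, plus strand), the precursor of the Relb partner, ranked 1028 to 6354 in HSC and 64 to 4771 in unstimulated BMDM. Rel (chr11:23736847-23770970, minus strand), a subunit prominent in blood cells, ranked 1037 to 5394 in HSC and 159 to 3565 in unstimulated BMDM. Nfkbie (chr17:45555703-45563169, plus strand), an inhibitor that retains Rel and Rela dimers, ranked 4248 to 33681 in HSC and 52 to 7640 in unstimulated BMDM, where 9 of 11 libraries lay nearer the top than any HSC library. All of these ranges overlapped, and those of the remaining genes overlapped as well. Nfkbiz (chr16:55811375-55838899, minus strand) ranked 1110 to 3157 in HSC and 102 to 3877 in unstimulated BMDM. Rela (chr19:5637483-5648130, plus strand), the main transactivating subunit, ranked 465 to 3393 in HSC and 181 to 2474 in unstimulated BMDM. Nfkb1 (chr3:135584655-135691547, minus strand), the precursor of the usual Rela partner, ranked 245 to 4872 in HSC and 43 to 3618 in unstimulated BMDM. Nfkbib (chr7:28758251-28767512, minus strand), a further cytoplasmic inhibitor, shares its promoter window with Sirt2, so its peaks cannot be assigned to either gene. It ranked 872 to 4222 in HSC and 53 to 3204 in unstimulated BMDM. Tnfaip3 (chr10:19000910-19015657, minus strand) ranked 314 to 2558 in HSC and 83 to 3188 in unstimulated BMDM.

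Ordered by geometric mean H3K27ac rank, HSC ran from Rela (1165), Tnfaip3 (1167) and Nfkb1 (1762) to Nfkb2 (3301) and Nfkbie (6927). Unstimulated BMDM ran from Relb (47.7), Nfkbia (230) and Rela (668) to Nfkbib (1114) and Nfkbie (2157), and LPS+IFN-γ BMDM from Nfkbia (477), Rela (519) and Relb (523) to Nfkb2 (1600) and Nfkbie (4621). Of the 54 pairs of neighbours in these orders, taken over both marks and the 3 cell states, 2 differed beyond their spread in a two-sided exact sign-flip permutation test. Nfkb2 stood above Nfkbie by 1.07 on the log2 scale in HSC and by 1.53 in LPS+IFN-γ BMDM, in 12 of 12 libraries each (exact p = 0.000488, Benjamini-Hochberg adjusted over the pairs p = 0.0132). The other neighbours, Relb and Nfkbia in unstimulated BMDM included, were not separated beyond their spread. Without the 3 libraries against their labels Relb (28.2) and Nfkbia (230) again led and Nfkbie (1785) was again last in unstimulated BMDM, and Nfkbia (533), Relb (543) and Nfkb1 (611) led in LPS+IFN-γ BMDM, where Rela moved to place 5 (768) and Nfkbie stayed last (4782).

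Compared with HSC, unstimulated BMDM had 6 of the 10 promoters nearer the top of the H3K27ac list and none farther from it. Among all 15333 genes tested, 10.7% were called nearer the top and 31.7% in either direction. The median difference in −log2 rank, in which a positive value means nearer the top in BMDM, was 1.42 over the 10 genes and -0.14 over all genes. Relb moved most, by 5.44 ± 0.73 (SE; 23 libraries compared, adjusted p = 3.93e-07), a 43.3-fold shift in rank, and Nfkbia by 3.63 ± 0.57 (adjusted p = 5.52e-06). Nfkb2 moved by 1.91 ± 0.55 (adjusted p = 0.00767), Nfkbie by 1.65 ± 0.47 (adjusted p = 0.00691), Rel by 1.56 ± 0.53 (adjusted p = 0.0224) and Nfkbiz by 1.27 ± 0.47 (adjusted p = 0.0354). The 4 genes that were not called had differences of 1.19 (Nfkb1), 0.84 (Nfkbib), 0.75 (Rela) and 0.17 (Tnfaip3). Leaving out single libraries ended the call of Nfkbiz in 9 of 23 fits (adjusted p up to 0.108) and that of Rel in 2. Without the control libraries against their labels the count was again 6, with 29.7% of genes called. When peaks were ordered by fold enrichment in place of p-value only Relb (3.42, adjusted p = 0.000136) and Nfkbia (2.24, adjusted p = 0.00281) passed, and Nfkbiz lay on the other side of 0 at -0.68 (adjusted p = 0.544).

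Within each disease group the 2 genes with the largest shifts were called again. In control mice 4 genes were nearer the top in BMDM, against 15.9% of all genes called in either direction: Relb (4.78 ± 1.00, adjusted p = 0.000872), Nfkbia (3.77 ± 0.78, adjusted p = 0.000752), Nfkb2 (2.33 ± 0.76, adjusted p = 0.0320) and Nfkbie (1.86 ± 0.65, adjusted p = 0.0468). In diabetic mice 2 were, against 15.3% of all genes: Relb (6.09 ± 1.05, adjusted p = 9.87e-05) and Nfkbia (3.49 ± 0.82, adjusted p = 0.00308). Without the 3 libraries against their labels 5 genes were called in control mice (12.9% of genes), with Rel added at 2.34 ± 0.57 (adjusted p = 0.00564), and 3 in diabetic mice (15.2%), with Rel added at 1.79 ± 0.54 (adjusted p = 0.0210). The diabetic libraries are the same in both fits, and only the shared estimate of the spread differs. Whether the shift differs between control and diabetic mice was not tested.

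**Figure D2:**
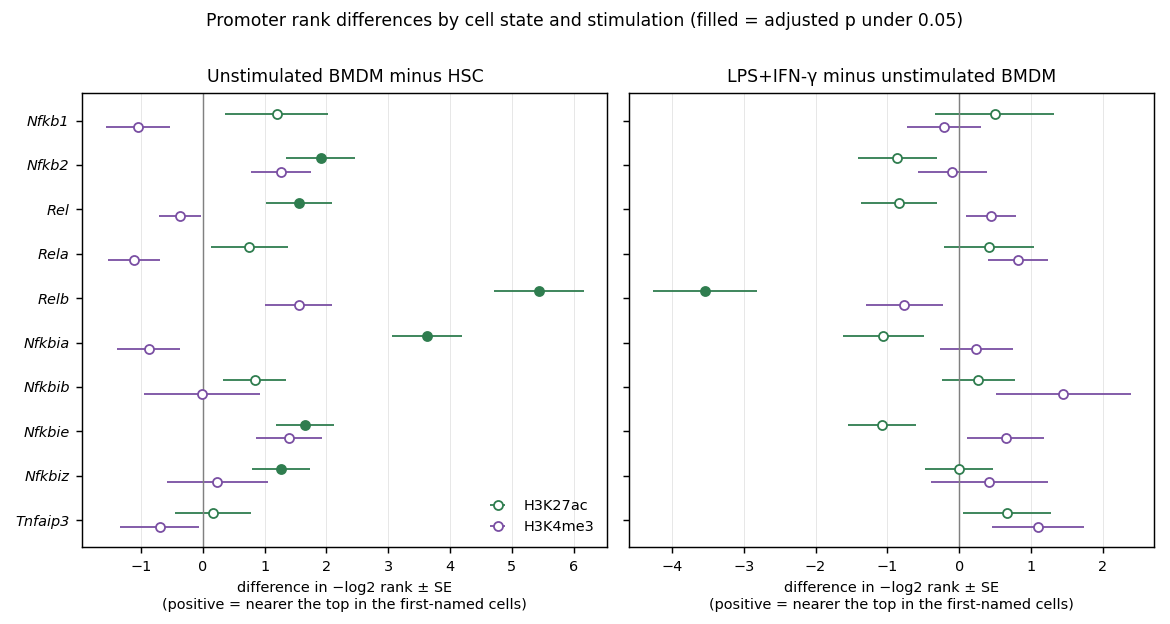
Difference in −log2 promoter rank with its SE for each gene, unstimulated BMDM minus HSC at left and LPS+IFN-γ minus unstimulated BMDM at right, for H3K27ac and H3K4me3. Filled points passed an adjusted p of 0.05: 6 genes for H3K27ac at left, and Relb at right, where it lay at -3.54.

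Stimulation with LPS+IFN-γ moved 1 of the 10 promoters, and it moved away from the top. Relb fell by 3.54 ± 0.73 in −log2 rank (adjusted p = 0.00753), where 1.31% of the 15333 genes were called farther from the top, 0.9% nearer it and 2.21% in either direction. The geometric mean rank of Relb was 523 in stimulated BMDM (SD 1.44 on the log2 scale, n = 12), still nearer the top than 98.0% of genes. No other member was called. Differences ranged from -1.07 (Nfkbie, adjusted p = 0.233) and -1.06 (Nfkbia, adjusted p = 0.339) to 0.66 (Tnfaip3, adjusted p = 0.622). By fold enrichment the Relb difference was -2.49 and missed the threshold (adjusted p = 0.0857).

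Leaving out the 3 control libraries against their labels raised the count to 3, all farther from the top after stimulation, and the background to 6.1% of genes. Relb was then at -4.24 (adjusted p = 0.000419), Nfkb2 at -1.86 (adjusted p = 0.00384) and Rel at -1.76 (adjusted p = 0.00626). With all libraries Nfkb2 had been at -0.86 ± 0.55 (adjusted p = 0.439) and Rel at -0.84 ± 0.53 (adjusted p = 0.431). The library labelled LPS+IFN-γ control 5 had Nfkb2 at rank 92 and Rel at rank 73, whereas the other 5 libraries of its group had them at 2424 to 3532 and 1361 to 3403.

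In diabetic BMDM alone Relb was called (-4.47 ± 1.05, adjusted p = 0.0181), with 2.09% of genes called in either direction. In control BMDM alone limma called no gene at all (0% of 15333, with 747 genes at an unadjusted p under 0.05), and Relb was at -2.61 ± 1.00 (adjusted p = 0.970). Without the 3 libraries against their labels 0.548% of genes were called in control BMDM, among them Nfkb2 (-3.46 ± 0.59, adjusted p = 0.00268) and Rel (-2.42 ± 0.59, adjusted p = 0.0498), while Relb was at -4.02 ± 1.09 (adjusted p = 0.0779). The difference between the responses with all libraries was -1.86 ± 1.45 for Relb (adjusted p = 0.914), and limma called no gene for it, with 934 at an unadjusted p under 0.05.

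By the calls made, H3K4me3 separated the cell states less than H3K27ac did. Ranks were limited at 13730 for H3K4me3 and at 51162 for H3K27ac. Control H3K4me3 lists had a median of 49624 peaks in HSC and 161117.5 in unstimulated BMDM, and diabetic ones 89111 and 96580. For H3K27ac these medians were 130591 and 132443 in control mice, and 92673.5 and 105751 in diabetic mice. Their part in the comparison of the marks was not tested. Compared with HSC, limma called none of the 10 genes in unstimulated BMDM, where 10.7% of 13351 genes were called, although 5 of the 10 had an unadjusted p under 0.05. Relb was nearest the threshold at 1.55 ± 0.54 (adjusted p = 0.0558). Its H3K4me3 rank was 3446 to 13731 (median 6258.5) in control HSC and 197 to 4126 (median 2906.5) in control unstimulated BMDM, and the groups overlapped. Nfkbie had a difference of 1.40 ± 0.54 (adjusted p = 0.0812) and Nfkb2 of 1.27 ± 0.48 (adjusted p = 0.0800), while Rela (-1.11 ± 0.42, adjusted p = 0.0751) and Nfkb1 (-1.05 ± 0.51, adjusted p = 0.172) had values of the other sign. After LPS+IFN-γ no member and no gene was called for H3K4me3 (0% of 13351 by limma, 802 genes at an unadjusted p under 0.05, and 0 of the 10 members).

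By geometric mean H3K4me3 rank the members sat in another order. Tnfaip3 (1850), Nfkbiz (1953) and Nfkb1 (1959) led in HSC, where Nfkbie was last (10679, nearer the top than 20.7% of genes). Nfkbiz (1682) and Relb (1855) led in unstimulated BMDM, and Nfkbib (869) and Nfkbiz (1244) after LPS+IFN-γ. Rel (8868) and Rela (8338) were last in unstimulated BMDM. No neighbouring pair in these H3K4me3 orders differed beyond its spread.

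**Figure D3:**
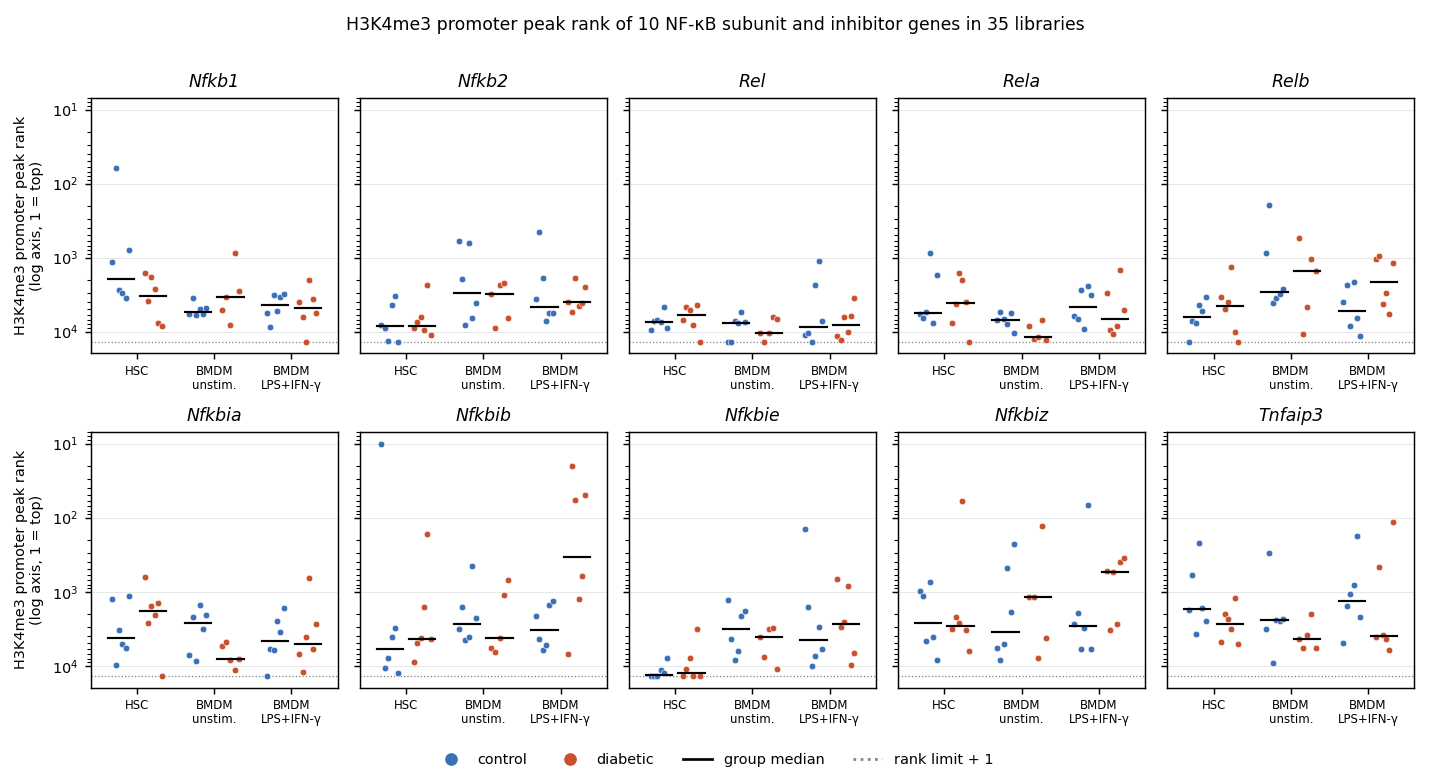
H3K4me3 promoter peak rank (log axis, rank 1 at the top) of each gene in the 35 libraries by cell state, with control and diabetic libraries as separate colours, bars at group medians and a dotted line at the rank given to absent peaks. Nfkbib spread the most, from rank 10 to 12652, and Nfkbie lay nearest the dotted line in HSC.

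The place of the strongest peak is described, without a test, for 2 genes. Nfkbiz has several start sites, and its strongest H3K27ac peak lay nearest the one at position 55822138 of chromosome 16 in 7 of 12 HSC, 10 of 11 unstimulated and 10 of 12 stimulated libraries, with the rest at 55838854. For Rel, with the start site at 23770970 of chromosome 11, the median summit lay at -311 bp, which is upstream, in HSC, at 233 bp in unstimulated BMDM and at 192 bp after LPS+IFN-γ. Over whole loci, the region with the best median H3K27ac rank was the gene's own promoter for each member except Nfkbie, where it was the promoter of Hsp90ab1, a chaperone gene (median rank 2421).

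Diabetes did not move any of the 10 promoters past the threshold in either mark. In HSC 0.00652% of genes (1 of 15333) were called for H3K27ac, and in unstimulated BMDM, in LPS+IFN-γ BMDM and for the difference in response the share was 0%. Among members, limma's unadjusted p was under 0.05 for 0, 0, 0 and 1 of the 10 genes in these 4 comparisons. Within a cell state the largest H3K27ac difference was that of Relb in unstimulated BMDM, 1.84 ± 1.05 in −log2 rank nearer the top in diabetic libraries (adjusted p = 0.902), followed by Nfkbib at -1.32 ± 0.73 (adjusted p = 0.902). For the difference in response to LPS+IFN-γ the largest was 2.06 ± 1.01 (Nfkbib, adjusted p = 0.814). These differences missed the threshold after adjustment over all 15333 genes, which does not show that there was none. Without the 3 libraries against their labels no member was called either, and the largest differences were those of Nfkb2, -2.20 ± 0.59 in unstimulated BMDM (adjusted p = 0.517) and 3.19 ± 0.80 for the response (adjusted p = 0.702). Both Nfkb2 values were several times their SE and missed the threshold under the adjustment over all genes. For H3K4me3 no gene was called (0%) in any of the 4 comparisons, and 1, 0, 1 and 0 of the 10 members had an unadjusted p under 0.05.

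The largest H3K4me3 difference within a cell state was that of Nfkbib in LPS+IFN-γ BMDM, at a promoter window shared with Sirt2. Diabetic libraries had ranks from 20 to 7045 (median 339.5) and control libraries from 1315 to 6131 (median 3269), so 5 of 6 diabetic libraries lay nearer the top than any control one, and the library labelled diabetic 1 lay beyond them all. The difference was 3.48 ± 1.29 (adjusted p = 0.700), and that of the response to stimulation was 3.78 ± 1.88 (adjusted p = 0.926). Nfkb1 in HSC was at -1.71 ± 0.71 (adjusted p = 1.00).

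**Figure D4:**
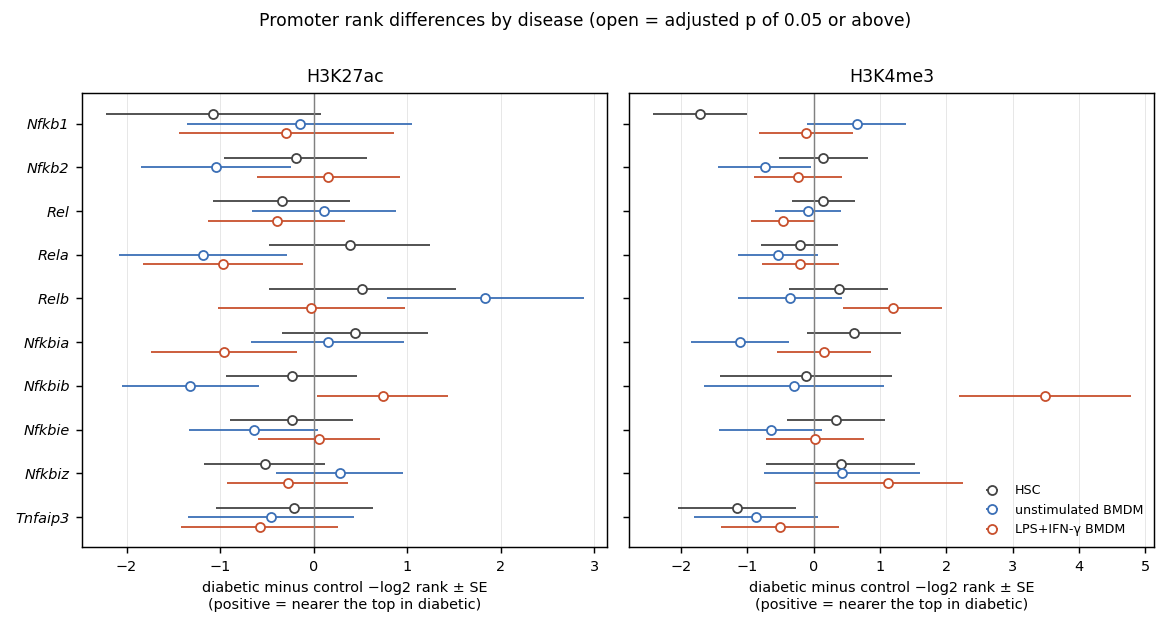
Diabetic minus control difference in −log2 promoter rank with its SE for each gene, for each of the 3 cell states, with H3K27ac at left and H3K4me3 at right. All points are open since none passed an adjusted p of 0.05. Nfkbib, which shares its promoter window with Sirt2, is the farthest from 0, at 3.48 for H3K4me3.

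Away from promoters, 6 H3K27ac regions more than 1 kb from any start site overlapped the loci of 3 inhibitors. These were 3 near Nfkbia, 2 near Tnfaip3 and 1 in Nfkbib. They were drawn from the 5079 distal regions found in the top 10000 of at least 2 libraries and inside the rank limit in at least 5. The filter bears on the tests, because 5 of the 6 regions entered it through BMDM alone, with no HSC library in the top 10000. The downstream Tnfaip3 region entered through 4 stimulated and 1 unstimulated library, the one in the Tnfaip3 gene through 2 stimulated, and the Nfkbib region through 1 stimulated and 2 unstimulated. Of the Nfkbia regions, chr12:55463447-55469624 was in the top 10000 of 12 stimulated, 9 unstimulated and 3 HSC libraries. The regions chr12:55472684-55475864 and chr12:55488979-55489657 entered through 8 and 2 stimulated libraries alone. The loci of the 5 subunits, and those of Nfkbie and Nfkbiz, held none. A pair of 300-base windows about the summits is shown because one region ranked nearer the top in stimulated libraries and the other held the only κB match among the distal windows.
Tnfaip3, downstream region, chr10:18998058-18998357, plus strand: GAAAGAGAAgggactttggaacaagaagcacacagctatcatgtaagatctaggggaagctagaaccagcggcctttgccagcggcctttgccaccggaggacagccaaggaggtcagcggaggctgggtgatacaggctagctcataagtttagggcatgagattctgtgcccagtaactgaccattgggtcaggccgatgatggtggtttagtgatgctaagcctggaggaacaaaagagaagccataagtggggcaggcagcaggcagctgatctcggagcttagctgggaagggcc
Nfkbia, downstream region, chr12:55465637-55465936, plus strand: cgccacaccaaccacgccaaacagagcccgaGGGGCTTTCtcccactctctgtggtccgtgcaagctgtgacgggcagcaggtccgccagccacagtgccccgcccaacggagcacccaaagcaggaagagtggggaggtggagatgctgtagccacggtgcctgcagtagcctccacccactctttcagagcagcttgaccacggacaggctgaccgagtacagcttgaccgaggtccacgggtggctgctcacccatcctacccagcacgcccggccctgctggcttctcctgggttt
Capitals mark an interferon response match at -149 from the summit in the Tnfaip3 window, a motif found in 4.98% of all distal windows, and a κB match at -118 in the Nfkbia window. The κB letters were in 1 of the 6 member windows and in 9.94% of the 5079. That Nfkbia window lies beyond the 20 kb flank, and only the near end of its region is inside the locus.

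The downstream Tnfaip3 region, chr10:18997665-18998630, starts 2.28 kb past the end of the gene and 10.2 kb from its nearest start site, outside any exon. It was at the rank limit in 11 of 12 HSC libraries and at 42048 in the other. In unstimulated BMDM its rank was 8442 to 29122 (median 19254) in control libraries and 15405, 16531, 22613, 31522 and 51163, the value set for ranks past the limit, in diabetic ones. After LPS+IFN-γ it was 6770 to 35750 (median 12222) in control and 2605 to 24822 (median 12707.5) in diabetic BMDM. All unstimulated libraries lay nearer the top than the median HSC library apart from diabetic 1, and the stimulated values overlapped the unstimulated.

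The second Tnfaip3 region, chr10:19003457-19005785, lies inside the gene 3.06 kb from a start site, with 1991 of its 2329 bases exonic. It was at the limit in all 12 HSC libraries. Its rank was 23960 to 51163 (median 33637.5) in control unstimulated BMDM and 23429, 35491, 35666, 51163 and 51163 in diabetic ones. LPS+IFN-γ libraries had 9554 to 51163 (median 18203.5) in control and 7987 to 40265 (median 17400) in diabetic BMDM. The stimulated medians were nearer the top and the ranges overlapped.

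Both Tnfaip3 regions were called nearer the top after LPS+IFN-γ and none of the other 4 was, where 13% of distal regions were called in that direction and 16% in either. The filter favours this direction for both, since stimulated libraries brought them in, and the p-values do not allow for it, so these values are a description. The downstream region moved by 0.88 ± 0.28 (adjusted p = 0.0280) and the one in the gene by 0.98 ± 0.24 (adjusted p = 0.00405), while the Tnfaip3 promoter itself was at 0.66 ± 0.61 and was not called. Without the 3 control libraries against their labels both were called again (0.89, adjusted p = 0.0374, and 1.21, adjusted p = 0.000250), with 23.1% of regions called. In diabetic BMDM alone they were at 1.22 ± 0.41 and 1.16 ± 0.35 (adjusted p = 0.0364 and 0.0189, 16.9% called), and in control BMDM alone at 0.55 ± 0.39 and 0.81 ± 0.33 (adjusted p = 0.814 and 0.439, 0.0394% called). Without the 3 libraries the control values were 0.56 ± 0.47 and 1.25 ± 0.35 (adjusted p = 0.619 and 0.0266, 6.3% called). The differences between those responses with all libraries were 0.67 ± 0.57 and 0.35 ± 0.48 and were not called. Neither call held when ranks were divided by list length (adjusted p = 0.155 and 0.0665).

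Compared with HSC, 4 of the 6 regions were nearer the top in unstimulated BMDM, where 42.2% of distal regions were called in that direction and 64% in either. The downstream Tnfaip3 region moved by 1.24 ± 0.28 (adjusted p = 0.000239) and the Nfkbib region chr7:28764620-28765249, which is intronic and 1.26 kb from a start site, by 1.00 ± 0.28 (adjusted p = 0.00233). Both were past the rank limit in 11 of 12 HSC libraries and entered the set through BMDM libraries, so the filter favours this direction and their values too are a description. The near ends of the Nfkbia regions chr12:55463447-55469624 and chr12:55472684-55475864 lie 19.8 kb and 13.5 kb past the gene. These regions moved by 0.80 ± 0.27 (adjusted p = 0.00984) and 0.68 ± 0.24 (adjusted p = 0.0138). The second entered the set through stimulated BMDM libraries alone, with no HSC library among them, so its value too is a description. The first also had 3 HSC libraries in the top 10000. The count of 4 fell to 0 with ranks limited at 10000, to 2 with ranks divided by list length and to 1 by fold enrichment, and it was 4 without the 3 libraries against their labels (61.5% of regions called). In control mice alone 4 were called (50.3% of regions), or 2 without those libraries (44.5%), and in diabetic mice alone only the Tnfaip3 one (43.5% of regions). The region at the end of Nfkbia, chr12:55488979-55489657, was at -0.47 ± 0.35 (adjusted p = 0.235). None of the 6 was called by disease or for the difference in response (0% of 5079 in all 4 comparisons, with 0, 1, 1 and 0 of the 6 at an unadjusted p under 0.05).

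**Figure D5:**
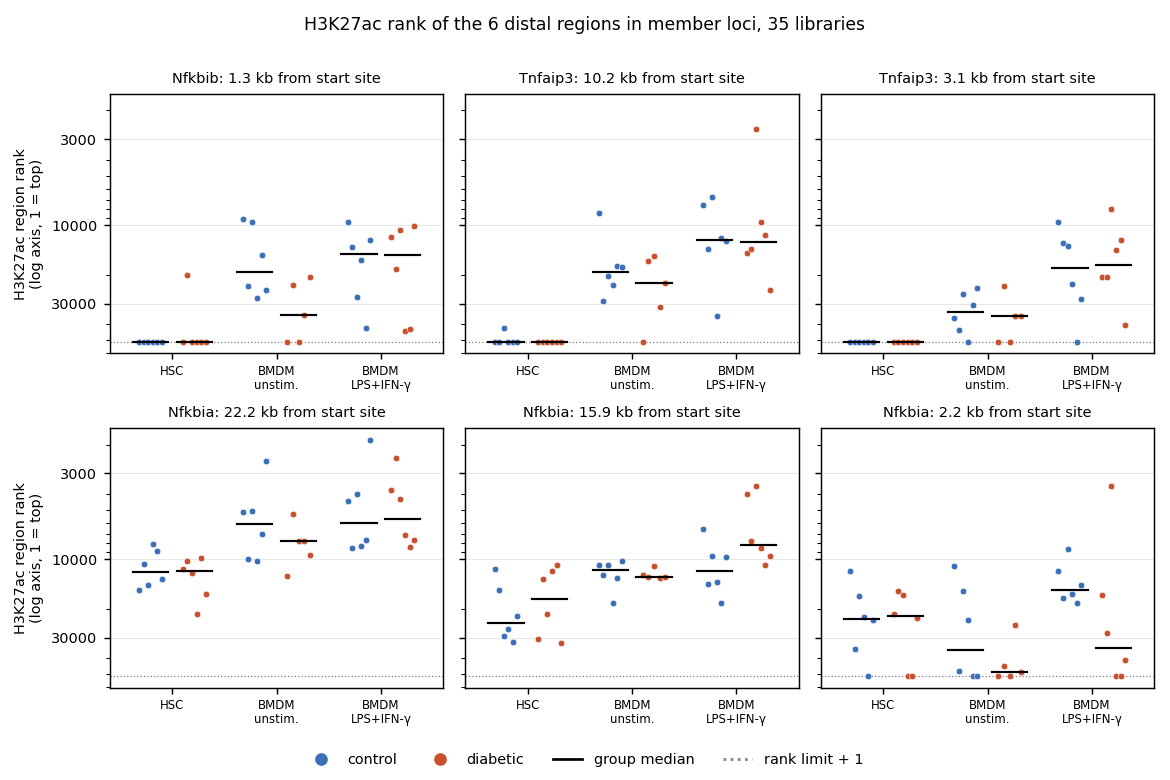
H3K27ac rank (log axis) of the 6 distal regions in 35 libraries by cell state, with control and diabetic libraries as separate colours, bars at group medians and a dotted line at the rank given to peaks past the limit. HSC libraries sit at the limit for the Nfkbib and both Tnfaip3 regions apart from 1 library each at 20020 and 42048, and the Tnfaip3 medians are nearest the top after LPS+IFN-γ.

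Distal H3K4me3 regions were found at Relb (1), Nfkbie (3) and Nfkb2 (1) and were not tested. They were in the top 10000 of 4 to 14 of the 35 libraries.

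Other genes of the pathway, listed with earlier results known, moved in both directions between HSC and unstimulated BMDM. Of 29 genes of the IκB kinase complex and upstream signalling, 6 were nearer the top for H3K27ac and 4 farther from it, with a median of -0.03 against -0.14 over all genes. The share called is close to the 31.7% of all genes called in either direction (10.7% nearer), and nothing is read from it. The 3 with the smallest adjusted p were Cd40, a receptor of the noncanonical arm (1.14 ± 0.26, adjusted p = 0.000891), Cd14, a coreceptor for LPS (2.01 ± 0.53, adjusted p = 0.00328), and Sharpin, a part of the linear ubiquitin ligase (-1.46 ± 0.43, adjusted p = 0.00800). Of 11 other inhibitors and their partners, 3 were nearer and 2 farther (median 0.44), beside the same 31.7% of all genes. The smallest adjusted p-values were those of Tax1bp1, an adaptor of Tnfaip3 (-3.97 ± 0.73, adjusted p = 6.42e-05), Bcl3, a nuclear IκB protein (2.44 ± 0.49, adjusted p = 0.000225), and Tnip2, a Tnfaip3-binding protein (1.5 ± 0.36, adjusted p = 0.00163).

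Of 23 target genes tested, 8 were nearer the top in unstimulated BMDM, where 10.7% of all genes were, and none farther from it (median 0.41), led by Cxcl1, a neutrophil chemokine (1.63 ± 0.28, adjusted p = 3.06e-05), Cd83, an activation marker (3.78 ± 0.70, adjusted p = 7.41e-05), and Cxcl2, a chemokine of the same family (1.08 ± 0.23, adjusted p = 0.000489). After LPS+IFN-γ, where 2.21% of all genes were called, Ccl5, a chemokine for T cells and monocytes (1.47 ± 0.26, adjusted p = 0.00181), and Ptgs2, the inducible cyclooxygenase (1.36 ± 0.29, adjusted p = 0.0114), moved nearer the top, and Zc3h12a, an RNase that limits cytokine mRNAs (-2.75 ± 0.72, adjusted p = 0.0336), moved away from it. None of the 29 upstream genes was called. The promoters of Il6, Il12b, Cxcl9, Cxcl10, Gbp2 and Il1b, which are known to respond to these stimuli, were in the top 10000 of no H3K27ac library in any cell state, while the other genes of that list, Irf1 and Nos2, gave 1 to 2 of 8 in each BMDM library. For H3K4me3 the calls among these lists between HSC and unstimulated BMDM, where 10.7% of genes were called, were Cd83 (1.29 ± 0.40, adjusted p = 0.0327) nearer the top and Tab2, an adaptor of the kinase Map3k7 (-1.69 ± 0.55, adjusted p = 0.0408), farther from it.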

How the data were processed

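Sheared chromatin was immunoprecipitated for H3K27ac or H3K4me3 and sequenced as 50-base single reads. Per the submitters' processing notes, tools were Trim Galore 0.3.3, cutadapt 1.8, FastQC 0.11.3, Bowtie2 2.2.6, Picard 2.18.14 and 2.19.2, bedtools 2.19.1 and MACS2 2.2.7.1, with GRCm38/mm10. The authors deposited 1 narrowPeak list per library, called against an input, with a score, a fold enrichment and −log10 p and q-values per peak. Read depth is unknown from these lists, so no counting interval is given, and the number of peaks per list (51162 to 176559 for H3K27ac, 13730 to 277213 for H3K4me3) limits the precision of ranks.

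Summits of 1 interval were merged, and the rank on the deposited −log10 p-value was taken. Genes with a promoter peak inside the limit in at least 5 libraries were fitted, on −log2 rank, in limma 3.58.1 (R 4.3.3, trend, all groups of a mark in 1 fit) with Benjamini-Hochberg adjustment over all genes (15333 and 13351) or distal regions (5079), called at an adjusted p of 0.05. Python 3.11.15, numpy 2.4.6, pandas 2.3.3 and scipy 1.17.1 did the rest. Promoters came from GENCODE and motif windows from RefSeq, both on GRCm38. Scripts were tested on simulated data. The test of neighbours in the order of ranks was an exact sign-flip test over libraries, and an exact permutation test of each member (call at p of 0.05, unadjusted) was an alternative. Other alternatives were rank limits, ranking by fold, ranks divided by list length, peak number as a covariate, no filter, promoters of 500 and 2000 bp, regions from the top 13000, a replicate block, and leaving out libraries. Leaving out the libraries against their labels within control or diabetic mice, and in the orders, was chosen after seeing the data.

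All 10 members are named, with the region of best median rank in each locus and each region called. Regions beyond that rule, given to account for all, were chosen after their values were seen. Of each pathway list the 3 genes with the smallest adjusted p are named where any were called. The members and lists were chosen with earlier results of these data known. Libraries share numbers across groups, and no label used here says what a number marks.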

Additional observations from a re-analysis of the deposited data

Results flagged for a closer look

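In 18 of 156 groups of libraries examined (11.5%), 1 library stood far from the others by Dixon's test on ranks, where chance alone gives about 1 in 20. That rate does not apply to 2 of the distal groups given last, in which all other libraries were tied at the rank limit. The libraries labelled LPS+IFN-γ control 5 accounted for 4 of them. The H3K27ac library had ranks of 73 for Rel (the others 1361 to 3403), 7 for Rela (406 to 2674) and 92 for Nfkb2 (2424 to 3532), and it is one of those against its label. The H3K4me3 library had a rank of 68 for Nfkbiz (1910 to 5957). All 4 values were nearer the top than the rest of their group.

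Nfkbie was set apart in 5 groups. Its H3K27ac rank was 2490 in diabetic LPS+IFN-γ BMDM 3 (the others 4676 to 5606), 52 in control unstimulated BMDM 1 (1638 to 7640), 5679 in diabetic unstimulated BMDM 6 (1993 to 2423) and 33681 in diabetic HSC 6 (4248 to 7492), and its H3K4me3 rank was 7807 in control HSC 6 (11595 to 13731). The remaining promoter values for H3K27ac were 1028 for Nfkb2 in control HSC 2 (3279 to 4542) and 50 for Nfkb1 in diabetic LPS+IFN-γ BMDM 4 (520 to 1563). For H3K4me3 they were 62 for Nfkb1 in control HSC 2 (786 to 3503), 10 for Nfkbib in control HSC 1 (3111 to 12652) and 60 for Nfkbiz in diabetic HSC 4 (2226 to 6414).

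Distal H3K27ac regions gave 4 more. The Nfkbib region chr7:28764620-28765249 was at rank 20020 in diabetic HSC 2 and the downstream Tnfaip3 region chr10:18997665-18998630 at 42048 in control HSC 3, while all others of those groups were past the limit. The Nfkbia regions chr12:55472684-55475864 and chr12:55488979-55489657 were at 11013 in diabetic unstimulated BMDM 4 (12466 to 12927) and at 25158 in diabetic unstimulated BMDM 5 (44926 to 51163).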

How the results depend on the processing

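Counts of member promoters called for H3K27ac between HSC and unstimulated BMDM were 6, and 2 with ranks by fold enrichment, where Nfkbiz turned to -0.68. For stimulation the count was 1, 0 by fold enrichment, 3 without the control libraries against their labels and 2 by exact tests. H3K4me3 counts of 0 became 1 with no rank limit, 3 with ranks divided by list length and 4 by exact tests between cell states, and 1 by exact tests for stimulation, for disease in unstimulated BMDM, for disease in LPS+IFN-γ BMDM and for the difference in response. Exact tests were not adjusted over genes. Of the distal regions, the 2 called for stimulation became 0 with ranks limited at 10000 or divided by list length, 1 by fold enrichment and 4 by exact tests, and the 4 called between cell states became 0, 2 and 1 under the first 3 of these and 8 with regions drawn from the top 13000, a wider set of regions. The Nfkbia regions added by exact tests for stimulation had entered the set through stimulated libraries alone, so the filter favours that direction. Disease in unstimulated BMDM had 1 distal region by exact tests. Dividing ranks by list length moved the median difference of all H3K4me3 genes between cell states by 0.99, the same amount as each member called there, so those 3 calls show no change of these genes relative to others (5598 genes nearer the top and 20 farther, against 470 and 956). It moved the medians of the disease comparisons and the response by -0.67 to 0.38, with no member called, and the distal stimulation split from 659 nearer and 152 farther to 225 and 13. The cause of the other shifts was not tested.

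Leaving out 1 library in turn, counts ran from 4 to 6 (H3K27ac promoters, cell state), 0 to 2 (H3K4me3 promoters, cell state), 1 to 3 (distal, stimulation) and 4 to 5 (distal, cell state), from 1 to 1 for H3K27ac promoters with stimulation, and from 0 to 0 in the other comparisons. Rel lost its cell-state call without diabetic unstimulated BMDM 5 (adjusted p = 0.0525) or control unstimulated BMDM 3 (0.05003). Nfkbiz lost it in 9 of 23 fits: without diabetic unstimulated BMDM 5 (0.108) or 6 (0.0691), control unstimulated BMDM 3 (0.0707), 4 (0.0550) or 6 (0.0607), diabetic HSC 3 (0.0510) or 6 (0.0502), or control HSC 2 (0.0521) or 5 (0.0558). H3K4me3 gave 1 call, of Relb, without diabetic unstimulated BMDM 2, diabetic HSC 4 or control unstimulated BMDM 4, 1 of Nfkb2 without diabetic HSC 5, 1 of Rela without diabetic HSC 6, and 2 (Relb and Nfkb2) without control unstimulated BMDM 3. The downstream Tnfaip3 region lost its stimulation call without diabetic LPS+IFN-γ BMDM 3 (0.0632), diabetic unstimulated BMDM 1 (0.0685) or 5 (0.0505), control LPS+IFN-γ BMDM 1 (0.0585) or 3 (0.0553) or control unstimulated BMDM 2 (0.0547), and the Nfkbia region chr12:55488979-55489657 gained one (0.971 to 1.07) without diabetic LPS+IFN-γ BMDM 4, 5 or 6, diabetic unstimulated BMDM 5, control LPS+IFN-γ BMDM 5 or control unstimulated BMDM 1 or 3. The Tnfaip3 region in the gene gained a cell-state call without diabetic unstimulated BMDM 1 or 4 or control unstimulated BMDM 4 (0.56 to 0.57). That Nfkbia region and this one each entered the set through 2 stimulated libraries alone, so the filter favours the stimulation gain. The cell-state gain compares unstimulated BMDM with HSC, neither of which brought the region in, and it is given as a description.

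With the replicate number as a block the counts were the same, and Relb was at 5.43 between cell states and -3.53 with stimulation. Correlations of same-numbered libraries ran from -0.26 to 0.39 and passed 0.1 in 21 of 66 pairs. All pairs passed it in 1 of 12 sets (distal regions of diabetic BMDM), and 19 libraries correlated best with their own number. These matches lay mostly between unstimulated and LPS+IFN-γ BMDM, with 2 to 4 in each set of 5 or 6 pairs. Sets of HSC and unstimulated BMDM had 0 or 1. The number may therefore link the 2 BMDM states, which the unpaired fit of stimulation does not use. The block spanned all 3 cell states, and pairing within BMDM alone was not fitted.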
